A study of Mus musculus with 2 samples.

Results

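The genes described here are 10 targets of Nrf2, the transcription factor that switches on the cell's defence against oxidants: Slc7a11, Gclc, Gclm, Gsta4, Gstm1, Txnrd1, Srxn1, Nqo1, Hmox1 and Aldh3a1. They are known targets of Nrf2, and the list was chosen with earlier results of these data known. All 10 were present among the 31053 genes of both count matrices. The measurements are single-cell RNA counts from dorsal skin, with 1 library from Chrna5-/- mice and 1 library from wild-type (WT) mice, called the knockout and WT libraries below. Chrna5 encodes the alpha5 subunit of nicotinic acetylcholine receptors. Per the labels, both libraries came from female C57BL/6 mice of 6 to 8 weeks whose shaved back skin received vaseline, the base of a cream, for 6 days, and skin was taken on day 7. The knockout line had been backcrossed to C57BL/6N for over 10 generations, while the extraction protocol names C57BL/6J and speaks of imiquimod-treated skin, which conflicts with the vaseline named by the sample labels and the design. Live cells, negative for the dye SytoxBlue, had been sorted from collagenase-digested skin. The sources used here do not give how many mice were pooled per library or which part of Chrna5 was deleted.

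Nrf2 is held at low levels by Keap1, which marks it for degradation, and it accumulates when oxidants or electrophiles modify Keap1. It then pairs with small Maf proteins and binds antioxidant response elements, whose core is shared by many genes for glutathione synthesis, conjugation and redox recycling. In skin this programme is known for protecting keratinocytes, the cells that form the epidermis and the hair follicle's epithelium, from sunlight, chemicals and the products of inflammation.

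The promoter windows were examined for the core of that element, since it is the sequence the 10 genes are thought to share. The windows ran from 250 bases before to 50 bases after a gene's start (RefSeq, GRCm38.p6), and 9 windows were available for 6 of the 10 genes: Slc7a11, Gstm1, Nqo1, Txnrd1, Gclm and Srxn1. The letters TGACNNNGC, searched on both strands, occurred in 3 of the 9 windows, 1 each of Gclm, Txnrd1 and Srxn1, and in 12.4% of the 32851 windows of all genes. A match is a description of letters and not a binding site. The 3 windows are shown 5′ to 3′ on the gene's own strand, with the match in capitals; each match reads TGACNNNGC on the opposite strand, so the capitals show its reverse complement. The match began 134 bases before the gene's start in Gclm, 92 bases before a start of Txnrd1 and 28 bases after the start of Srxn1.
Gclm promoter, GRCm38.p6 chr3:122245307-122245606, plus strand: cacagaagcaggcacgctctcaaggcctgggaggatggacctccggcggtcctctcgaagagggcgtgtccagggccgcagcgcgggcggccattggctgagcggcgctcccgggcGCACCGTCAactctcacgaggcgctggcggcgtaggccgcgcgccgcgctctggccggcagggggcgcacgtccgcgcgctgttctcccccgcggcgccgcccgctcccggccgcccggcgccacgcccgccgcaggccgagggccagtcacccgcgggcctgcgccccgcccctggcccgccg
Txnrd1 promoter, GRCm38.p6 chr10:82858956-82859255, plus strand: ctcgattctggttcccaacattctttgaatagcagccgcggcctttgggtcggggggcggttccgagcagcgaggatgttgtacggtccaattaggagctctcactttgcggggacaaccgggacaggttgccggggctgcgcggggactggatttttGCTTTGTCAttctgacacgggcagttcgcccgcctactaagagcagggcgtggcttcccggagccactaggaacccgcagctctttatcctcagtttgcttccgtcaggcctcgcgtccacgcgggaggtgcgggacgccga
Srxn1 promoter, GRCm38.p6 chr2:152105274-152105573, plus strand: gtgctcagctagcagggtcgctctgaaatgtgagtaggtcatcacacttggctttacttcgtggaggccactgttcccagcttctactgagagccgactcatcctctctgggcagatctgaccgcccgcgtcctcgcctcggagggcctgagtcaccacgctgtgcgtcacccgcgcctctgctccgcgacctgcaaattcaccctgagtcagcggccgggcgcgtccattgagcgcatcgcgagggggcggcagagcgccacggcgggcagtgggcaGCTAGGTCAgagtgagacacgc

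After filtering, 8859 knockout and 9686 WT cells were kept, with medians of 12223.5 and 12245 unique molecular identifiers (UMIs, counted RNA molecules) per deposited barcode. Cells were sorted into classes by fixed marker genes, and a class is called "like" a cell type because its name rests on those markers alone. Keratinocyte-like cells numbered 7130 in the knockout library and 7494 in the WT library, with 9 states: mitotic, replicating, inflammatory and other basal-like, spinous-like, upper hair follicle-like, outer root sheath-like, bulge and germ-like, and hair matrix-like. Dermal papilla and sheath-like, fibroblast-like, T and innate lymphoid-like and melanocyte-like cells made up the other 4 compared classes. Langerhans cell-like cells, 42 and 74, were under the minimum of 50 cells in each library and were not compared. Counts were summed over a class and expressed as CPM, UMIs of a gene divided by all UMIs of the same cells and put on a fixed scale, and every ratio is knockout over WT. With 1 library per genotype no test across animals was possible. Brackets hold exact 95% intervals, which cover counting error only, and a gene is called higher or lower when its ratio is at least 1.5 either way, its interval leaves out 1 and it has at least 20 UMIs over both libraries ("measured"). Chrna5 itself had 2 UMIs in the knockout library and 11 in the WT library, too few to check the labels. Genes of the response to tissue dissociation were also unequal: in keratinocyte-like cells their median log2 ratio was 0.25 over 16 genes, against -0.03 over all 14588 measured genes, and their part in the results below was not tested.

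In keratinocyte-like cells together, 3 of the 10 Nrf2 targets were lower in the knockout and 0 were higher. These were Slc7a11, the cystine importer, Gsta4, a transferase that clears the lipid oxidation product 4-hydroxynonenal, and Aldh3a1, an aldehyde dehydrogenase. Over all measured genes 7.68% were lower and 2.76% were higher by the same rule. The median log2 ratio of the 10 targets was -0.27. The direction was mixed: Hmox1 and Txnrd1 had ratios above 1 and the other 8 had ratios below 1.

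**Figure D1:**
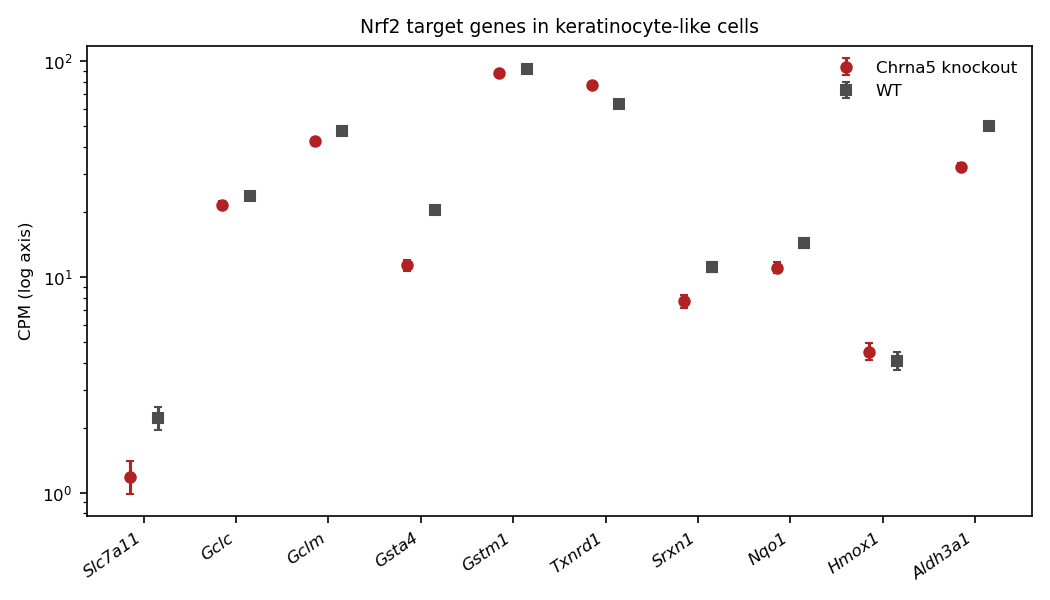
Level of each Nrf2 target gene in keratinocyte-like cells of the Chrna5 knockout (circles) and WT (squares) library, in CPM on a log axis, with exact Poisson 95% intervals. Slc7a11 (1.18 against 2.21 CPM) and Gsta4 (11.3 against 20.3 CPM) show the widest gaps, while Gstm1 (87.3 against 91.9 CPM) and Hmox1 (4.50 against 4.06 CPM) lie close together.

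The calls by state showed which keratinocytes carried these differences. Among measured targets, 3 of 10 were lower in mitotic basal-like cells (background 4% of all measured genes), 1 of 9 in replicating basal-like cells (3.58%), 1 of 9 in inflammatory basal-like cells (4.86%) and 2 of 9 in other basal-like cells (3.79%). In the 4 basal-like states pooled, 1 of 10 was lower (4.31%) and 0 were higher (3.45%). In spinous-like cells, the differentiating layer above the basal one, 3 of 10 were lower (3.82%). In the follicle, 1 of 9 was lower in upper hair follicle-like cells (4.33%), 3 of 10 in outer root sheath-like cells (4.43%), 4 of 10 in bulge and germ-like cells (4.26%) and 1 of 4 in hair matrix-like cells (5.8%). Gsta4 supplied 8 of these calls, Slc7a11 4 and Srxn1 3. The follicle counts depended on the gate, which also took in cells of basal-like and spinous-like clusters: with gated cells kept only in follicle clusters, 0 of 9 measured targets were lower in upper hair follicle-like, 1 of 9 in outer root sheath-like and 0 of 9 in bulge and germ-like cells. A single target was higher in any keratinocyte state, Txnrd1 in other basal-like cells, where 3.16% of all measured genes were higher. In the other states 0 targets were higher, where the share of all measured genes called higher was 2.82% in mitotic, 3.27% in replicating and 4.82% in inflammatory basal-like cells, 4.63% in spinous-like, 2.54% in upper hair follicle-like, 3.16% in outer root sheath-like, 4.15% in bulge and germ-like and 9.74% in hair matrix-like cells.

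**Figure D2:**
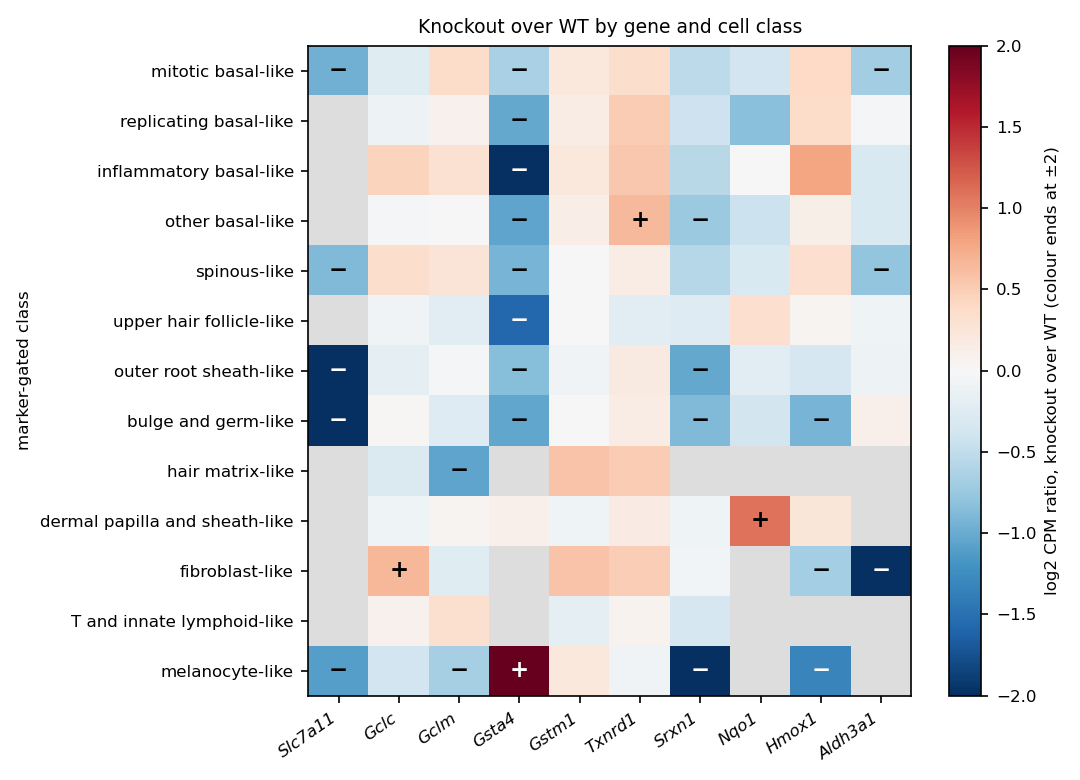
Log2 CPM ratio, knockout over WT, of each Nrf2 target (columns) in each cell class (rows), blue below 0, red above 0 and grey where fewer than 20 UMIs were counted over both libraries. Minus and plus signs mark genes called lower and higher; the Gsta4 column holds 8 minus signs in keratinocyte states and 1 plus sign in melanocyte-like cells.

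Slc7a11, on chromosome 3 (49892526 to 50443614, minus strand, GRCm38), encodes the transporter that brings in cystine for glutathione synthesis. It was sparse, with 125 UMIs in 114 knockout and 248 UMIs in 189 WT keratinocyte-like cells. Its level was 1.18 CPM in the knockout and 2.21 CPM in WT, a ratio of 0.533 [0.426 to 0.664]. The background of free RNA was set by T and innate lymphoid-like cells, in which 0 of 533 knockout cells and 0 of 576 WT cells held an Slc7a11 UMI. A floor of 3 cells would be shares of 0.563% and 0.521% there, which are not exact bounds. Those cells were shallower, with medians of 3062 and 2907.5 UMIs against 13990 and 14197.5 in keratinocyte-like cells, of which 1.60% and 2.52% held a UMI. With each cell thinned to 1000 UMIs the keratinocyte shares were 0.0858% in the knockout and 0.231% in WT, and the upper bounds for T and innate lymphoid-like cells, again with 0 cells holding a UMI, were 0.728% and 0.664%. At equal depth the keratinocyte shares could therefore not be set above that background.

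Among keratinocyte states Slc7a11 was highest in spinous-like cells of both libraries. The interval of the next state overlapped, inflammatory basal-like in the knockout and bulge and germ-like in WT. In spinous-like cells Slc7a11 had 2.52 CPM in the knockout and 4.64 CPM in WT (77 and 113 UMIs), a ratio of 0.544 [0.402 to 0.733]. Inflammatory basal-like cells had 2.22 CPM in the knockout and 2.39 CPM in WT, from 5 and 9 UMIs, too few to be measured. In mitotic basal-like cells it had 0.895 CPM in the knockout and 1.75 CPM in WT, a ratio of 0.511 [0.274 to 0.930]. The follicle showed lower ratios on few molecules. Outer root sheath-like cells held 4 UMIs in the knockout and 45 in WT (0.295 and 1.98 CPM), a ratio of 0.149 [0.0389 to 0.409]. Bulge and germ-like cells held 2 UMIs in the knockout and 22 in WT (0.497 and 2.85 CPM), a ratio of 0.175 [0.0199 to 0.710]. The outer root sheath call was lost with classes taken from clusters (1 and 6 UMIs) and with gated cells kept only in follicle clusters (1 and 16 UMIs), and the bulge and germ call was lost in follicle clusters too (1 and 15 UMIs). Without gates, the outer root sheath-like clusters 0 and 5 held 0 and 1 knockout and 4 and 2 WT UMIs of Slc7a11, too few to be measured. The bulge and germ-like cluster 18 held 1 knockout and 38 WT UMIs, a ratio of 0.0618 [0.00152 to 0.366]. Slc7a11 was also lower in clusters 3, 6 and 11, spinous-like and basal-like, and met no call in the other 2 keratinocyte clusters where it was measured. The highest single WT cell held 7 UMIs in outer root sheath-like and 5 in bulge and germ-like cells.

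Gclc and Gclm encode the catalytic and modifier subunits of glutamate-cysteine ligase, which makes the precursor of glutathione. In keratinocyte-like cells Gclc had 21.5 CPM in the knockout and 23.7 CPM in WT, a ratio of 0.904 [0.855 to 0.956]. Gclm had 42.4 CPM in the knockout and 47.4 CPM in WT, a ratio of 0.894 [0.859 to 0.930]. Neither gene met the rule in keratinocyte-like cells together, and Gclc met it in none of the 9 states.

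Among keratinocytes Gclc was highest in the follicle's matrix and stem cells in both libraries. It had 56.4 CPM in the knockout and 68.8 CPM in WT in hair matrix-like cells, and 55.7 and 54.6 CPM in bulge and germ-like cells; these neighbours in the order overlapped within each library. Gclm was highest in bulge and germ-like cells of the knockout and in hair matrix-like cells of WT. It had 63.7 CPM in the knockout and 132 CPM in WT in hair matrix-like cells (52 and 225 UMIs), a ratio of 0.482 [0.349 to 0.654] and its only call in keratinocytes. That class held 52 knockout and 107 WT cells. Keratinocyte markers, 14 of 14 detected in each library, summed to 23248 CPM in the knockout and 10334 CPM in WT there, and fibroblast markers, 6 and 7 of 10 detected, to 287 and 522 CPM; their part in the result was not tested. With classes taken from clusters the Gclm ratio was 0.722 and met no call. In bulge and germ-like cells Gclm had 101 CPM in the knockout and 120 CPM in WT. In spinous-like cells, near the low end of the order, it had 23.3 CPM in the knockout and 19.4 CPM in WT, a ratio of 1.20 [1.07 to 1.35].

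Gsta4, on chromosome 9 (78182774 to 78209349, plus strand), was the member with the most calls. In keratinocyte-like cells it had 11.3 CPM in the knockout and 20.3 CPM in WT (1197 and 2280 UMIs), a ratio of 0.555 [0.517 to 0.596]. It was detected in 9.72% of knockout and 14.8% of WT keratinocyte-like cells, against 1.5% and 0.868% of T and innate lymphoid-like cells. After thinning each cell to 1000 UMIs the keratinocyte shares were 0.873% [0.668 to 1.12] in the knockout and 1.56% [1.29 to 1.87] in WT, and those of T and innate lymphoid-like cells were 0.792% [0.216 to 2.02] and 0.361% [0.0437 to 1.3]. At that depth the keratinocyte share of neither library stood above the background share beyond the intervals, which in WT overlapped only at their ends. On the same chromosome as Chrna5, Gsta4 starts 23175 kb beyond its end. Gclc, which met no call in keratinocytes, starts 22746.8 kb beyond that end. Whether the libraries differ in strain sequence there cannot be read from these counts.

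The lower Gsta4 level was found in all 8 keratinocyte states in which the gene was measured. In spinous-like cells, the state with its highest level, it had 19.8 CPM in the knockout and 37.5 CPM in WT, a ratio of 0.527 [0.475 to 0.585]. In other basal-like cells it had 5.13 CPM in the knockout and 10.7 CPM in WT, a ratio of 0.479 [0.380 to 0.602]. The lowest ratio was in inflammatory basal-like cells, 0.242 [0.106 to 0.490], from 4.0 CPM in the knockout and 16.5 CPM in WT (9 and 62 UMIs). Mitotic basal-like cells stood at the other end with a ratio of 0.635 [0.526 to 0.767]. With each cell thinned to 1000 UMIs the spinous-like ratio was 0.812 and met no call, while those of other basal-like and of all keratinocyte-like cells stayed called. In WT the spinous-like level lay above every other class beyond the intervals, followed by dermal papilla and sheath-like cells (27.9 CPM) and replicating basal-like cells (27.7 CPM), which overlapped.

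Within single clusters the Gsta4 calls were in basal-like and spinous-like cells, those of the interfollicular epidermis between the follicles. Of 12 keratinocyte clusters in which it was measured, 6 were lower and 0 higher, and all 8 basal-like and spinous-like clusters had ratios below 1. Cluster 8, basal-like cells with Serpinb2, Igfbp3 and Epgn among their leading genes, had 1.37 CPM in the knockout and 15.0 CPM in WT (3 and 154 UMIs), a ratio of 0.0916 [0.0187 to 0.273]. Cluster 11, spinous-like, had 9.41 CPM in the knockout and 36.5 CPM in WT, a ratio of 0.258 [0.192 to 0.341]. The 4 follicle clusters gave no call. Cluster 0, outer root sheath-like, had 6.64 CPM in the knockout and 6.40 CPM in WT, and cluster 18, bulge and germ-like, had 3.60 and 2.69 CPM. Clusters 1, upper hair follicle-like, and 5, outer root sheath-like, had ratios of 0.713 [0.398 to 1.23] and 0.718 [0.477 to 1.06], near those of the basal-like clusters 2 and 6 that also met no call (0.686 and 0.674). A difference between epidermis and follicle was not tested. The Gsta4 calls in upper hair follicle-like, outer root sheath-like and bulge and germ-like cells therefore depended on the gate. With classes taken from clusters their ratios were 0.713, 0.833 and 1.34.

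**Figure D3:**
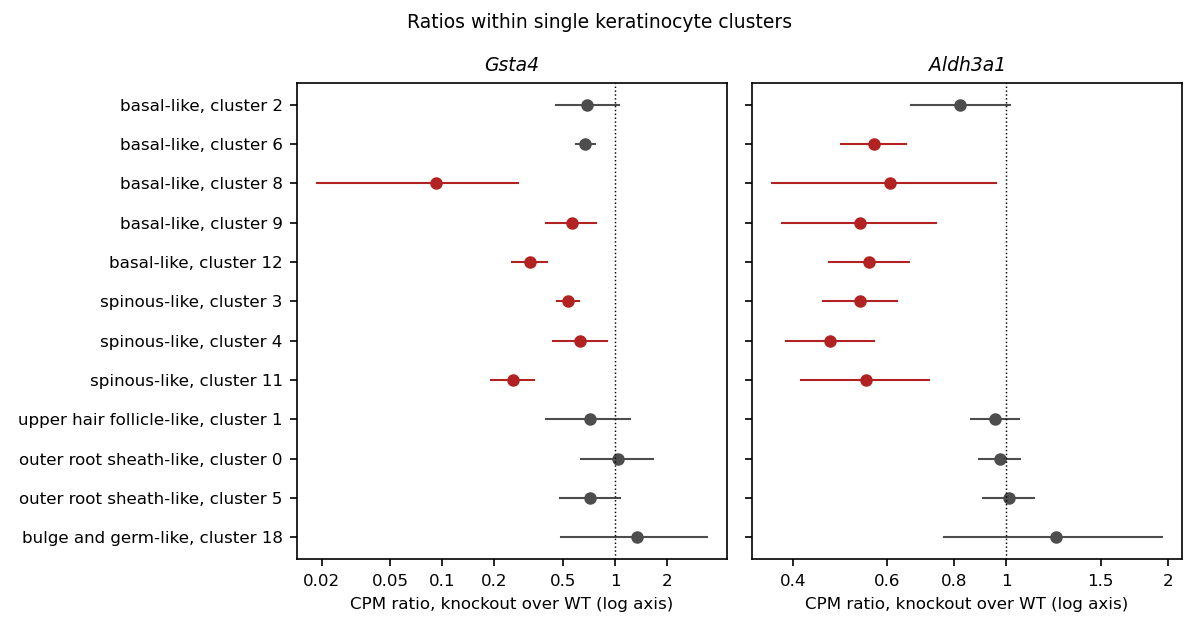
CPM ratio, knockout over WT, of Gsta4 (left) and Aldh3a1 (right) in each keratinocyte cluster where both were measured, on a log axis with exact 95% intervals; red marks genes called lower. For both genes the red points lie in basal-like and spinous-like clusters, and the 4 follicle clusters at the bottom cross a ratio of 1.

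The neighbouring alpha-class transferases went the other way in keratinocytes. Gsta1, Gsta2 and Gsta3 conjugate glutathione to electrophiles, and near-identical copies of this family can split reads, so single values are uncertain. Gsta2 had 7.99 CPM in the knockout and 2.92 CPM in WT (848 and 328 UMIs), a ratio of 2.73 [2.40 to 3.12]. Gsta3 had 0.971 CPM in the knockout and 0.285 CPM in WT, a ratio of 3.40 [2.27 to 5.23]. Gsta1 had 1.03 CPM in the knockout and 0.650 CPM in WT, a ratio of 1.58 [1.16 to 2.15]. Nearly all Gsta2 came from spinous-like cells, where it had 26.0 CPM in the knockout and 11.8 CPM in WT (793 and 287 UMIs). Gsta1 and Gsta2 lie beside Gsta4 on chromosome 9, starting 23222.9 and 23323.2 kb beyond the end of Chrna5, and Gsta3 lies on chromosome 1.

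Gstm1, a mu-class transferase on chromosome 3 that also has close paralogs, met the rule in no class. In keratinocyte-like cells it had 87.3 CPM in the knockout and 91.9 CPM in WT, a ratio of 0.951 [0.924 to 0.978]. Its ratio over the 13 separate classes ranged between 0.879 and 1.49. Its order of levels was shared by both libraries at the top: fibroblast-like cells had 552 CPM in the knockout and 374 CPM in WT, and upper hair follicle-like cells, next in the order and beyond the intervals of fibroblast-like cells, had 189.9 and 190.2 CPM. The fibroblast-like cells lay in different clusters in each library: within cluster 14 Gstm1 had 618 CPM in the knockout and 595 CPM in WT, a ratio of 1.04, and within cluster 7 it had 2 and 111 UMIs, a ratio of 0.125 [0.0149 to 0.461].

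Txnrd1 encodes cytosolic thioredoxin reductase, which keeps thioredoxin reduced, and Srxn1 encodes sulfiredoxin, which restores overoxidised peroxiredoxins. In keratinocyte-like cells together Txnrd1 had 76.9 CPM in the knockout and 63.0 CPM in WT, a ratio of 1.22 [1.18 to 1.26] that stayed short of the rule. The enzymes differed in opposite directions in the basal layer. In other basal-like cells Txnrd1 had 88.1 CPM in the knockout and 56.2 CPM in WT (2182 and 1023 UMIs), a ratio of 1.57 [1.46 to 1.69], and was called higher. Srxn1 in the same cells had 5.78 CPM in the knockout and 9.66 CPM in WT (143 and 176 UMIs), a ratio of 0.598 [0.476 to 0.750], and was called lower. These cells, too, lay in different clusters in each library, with 1039 knockout and 292 WT cells in cluster 2 and 72 and 309 in cluster 8. Within clusters Srxn1 was lower in cluster 2 (0.449) and met no call in clusters 8 (0.837), 12 (0.762) and 9 (1.31). Of all 12 keratinocyte clusters in which it was measured, Srxn1 was lower in 5 and higher in 0. The 5 were basal-like clusters 2 and 6, spinous-like cluster 3, upper hair follicle-like cluster 1 and outer root sheath-like cluster 0.

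In mitotic, replicating and inflammatory basal-like cells Txnrd1 did not reach the 1.5-fold rule, with ratios of 1.28, 1.43 and 1.46 and intervals above 1 in each. In spinous-like cells it had 44.4 CPM in the knockout and 40.1 CPM in WT, a ratio of 1.11 [1.02 to 1.20]. It did not differ beyond counting error in upper hair follicle-like cells, with 40.6 CPM in the knockout and 46.8 CPM in WT, a ratio of 0.867 [0.705 to 1.06]. Spinous-like and upper hair follicle-like cells held the lowest Txnrd1 levels of both libraries, below the other keratinocyte states. Within single clusters Txnrd1 was higher in basal-like clusters 2, 8 and 12, with ratios of 1.67, 1.83 and 1.66.

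Srxn1 had a ratio below 1 in all 12 classes in which it was measured, and it was called lower in 4 of them. In keratinocyte-like cells together it had 7.68 CPM in the knockout and 11.1 CPM in WT, a ratio of 0.692 [0.633 to 0.756] that stayed short of the 1.5-fold rule. In outer root sheath-like cells it had 3.90 CPM in the knockout and 7.91 CPM in WT (53 and 180 UMIs), a ratio of 0.494 [0.356 to 0.674]. In bulge and germ-like cells it had 4.47 CPM in the knockout and 8.28 CPM in WT, a ratio of 0.540 [0.301 to 0.923]. With gated cells kept only in follicle clusters Srxn1 stayed called in outer root sheath-like cells (0.410) and had a ratio of 0.416 in bulge and germ-like cells with no call. Spinous-like cells had 10.6 CPM in the knockout and 15.8 CPM in WT, a ratio of 0.675 [0.581 to 0.785]. Fibroblast-like cells had the highest Srxn1 levels of both libraries, 42.5 CPM in the knockout and 44.2 CPM in WT, a ratio of 0.963 [0.664 to 1.39]. Within their cluster 14 it was called lower, with 45.5 CPM in the knockout and 72.3 CPM in WT, a ratio of 0.629 [0.424 to 0.933].

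**Figure D4:**
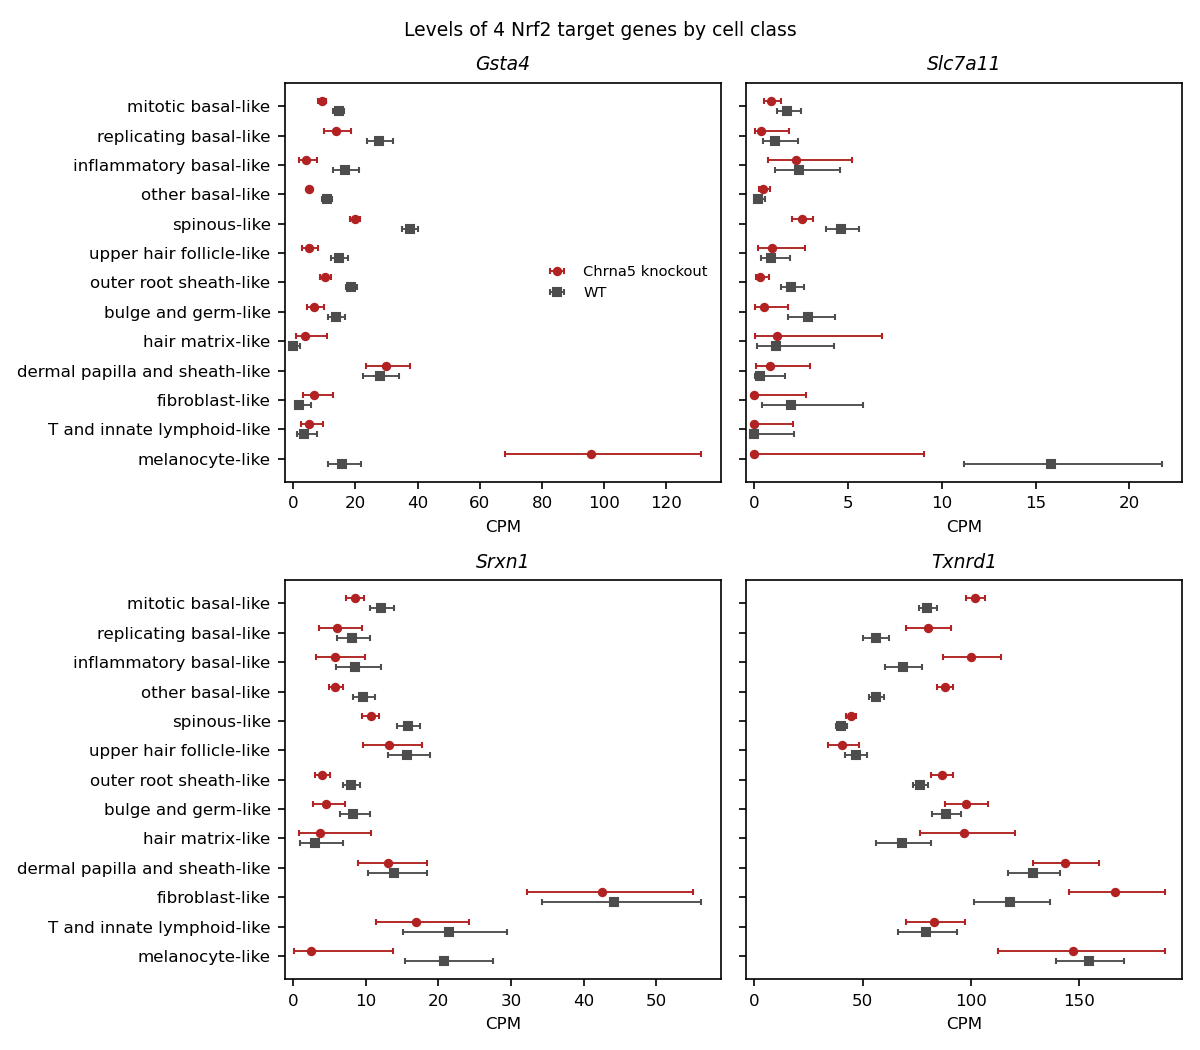
Levels of Gsta4, Slc7a11, Srxn1 and Txnrd1 in CPM in each cell class, with the Chrna5 knockout library as circles drawn above the WT library as squares and exact Poisson 95% intervals as bars. Gsta4 lies lower in the knockout in the 8 upper classes and higher in melanocyte-like cells (95.8 against 15.8 CPM), and Txnrd1 lies higher in the basal-like classes.

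Nqo1 encodes a quinone reductase and Hmox1 encodes haem oxygenase, which breaks down haem. In keratinocyte-like cells Nqo1 had 11 CPM in the knockout and 14.2 CPM in WT, a ratio of 0.772 [0.715 to 0.833]. No keratinocyte state met the rule for Nqo1, and the lowest ratio was 0.562 in replicating basal-like cells while upper hair follicle-like cells had the highest, 1.26. Single clusters did hold calls: Nqo1 was lower in clusters 2, 5 and 9, with ratios of 0.566, 0.666 and 0.666. Its levels were highest in mitotic basal-like, outer root sheath-like and upper hair follicle-like cells, which held 18.4, 18.1 and 19.7 CPM in the knockout and 24.0, 21.3 and 15.6 CPM in WT.

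Hmox1 was a gene of stroma and pigment cells in both libraries. Keratinocyte-like cells had 4.50 CPM in the knockout and 4.06 CPM in WT, a ratio of 1.11 [0.971 to 1.26]. Dermal papilla and sheath-like cells had 74.9 CPM in the knockout and 63.2 CPM in WT, a ratio of 1.18 [0.967 to 1.45], with no call. Among keratinocytes its 1 call was in bulge and germ-like cells, where it had 3.48 CPM in the knockout and 6.60 CPM in WT (14 and 51 UMIs), a ratio of 0.527 [0.269 to 0.967]. That call was lost with gated cells kept only in follicle clusters (0.547). Within single clusters Hmox1 was higher in spinous-like clusters 3 and 11, with 5.08 and 8.02 CPM in the knockout against 3.36 and 3.82 CPM in WT.

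Aldh3a1, on chromosome 11, oxidises aldehydes made by lipid peroxidation. In keratinocyte-like cells it had 32.4 CPM in the knockout and 49.8 CPM in WT (3433 and 5593 UMIs), a ratio of 0.649 [0.622 to 0.678]. It was highest in the follicle: upper hair follicle-like cells had 109 CPM in the knockout and 116 CPM in WT, and outer root sheath-like cells had 105 and 112 CPM, with overlapping neighbours within each library. In those states the ratios were 0.941 [0.830 to 1.06] and 0.936 [0.877 to 0.999]. These 2 states made up 239 and 918 knockout cells and 520 and 1434 WT cells. With the states weighted alike in both libraries the keratinocyte ratio of Aldh3a1 was 0.914 and met no call, whereas Gsta4 and Slc7a11 stayed called at 0.529 and 0.488.

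Among keratinocyte states, Aldh3a1 was called lower only in spinous-like and mitotic basal-like cells. It met no call in replicating, inflammatory or other basal-like cells, or in the basal-like states pooled. Spinous-like cells had 24.6 CPM in the knockout and 42.5 CPM in WT, a ratio of 0.579 [0.526 to 0.637]. Mitotic basal-like cells had 10.6 CPM in the knockout and 17.1 CPM in WT, a ratio of 0.619 [0.519 to 0.737]. After thinning to 1000 UMIs per cell neither met the rule, with ratios of 0.832 in spinous-like and 0.509 in mitotic basal-like cells. Within single clusters it was lower in 7 of the 8 basal-like and spinous-like clusters, with ratios down to 0.468 in cluster 4. The upper hair follicle-like and outer root sheath-like clusters 1, 0 and 5 had ratios of 0.953, 0.971 and 1.01.

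Melanocyte-like cells, the pigment cells of the follicle, held more calls than any other single cell type outside the keratinocytes. Of 8 measured targets, 4 were lower and 1 was higher, against 4.64% and 7.83% of all measured genes. The class was small and unequal in depth, with 74 knockout cells of a median of 3088 UMIs and 148 WT cells of a median of 6070.5 UMIs. All 9 melanocyte markers were detected in both libraries, at summed levels of 38407 CPM in the knockout and 38379 CPM in WT.

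Slc7a11, which in pigment cells also supports the red pigment pheomelanin, was not detected in the knockout melanocyte-like cells, with 0 UMIs against 38 UMIs in WT. A floor of 3 cells among the 74 would be a share of 4.05%, which is not an exact bound, and 15.5% of the WT cells held a UMI. The level was 15.8 CPM in WT. With the 0 replaced by a floor of 3 counts over the class it was 2.15-fold lower in the knockout, which is not a bound. The exact Poisson upper limit of the knockout level was 9.06 CPM. Srxn1 had 1 UMI in the knockout and 50 UMIs in WT (2.46 and 20.8 CPM), a ratio of 0.118 [0.00293 to 0.688]. Hmox1 had 46.7 CPM in the knockout and 117 CPM in WT (19 and 281 UMIs), a ratio of 0.399 [0.237 to 0.635]. Gclm had 95.8 CPM in the knockout and 152 CPM in WT, a ratio of 0.631 [0.441 to 0.879]. Txnrd1, in contrast, had 147 CPM in the knockout and 154 CPM in WT, a ratio of 0.954 [0.714 to 1.26].

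Gsta4 was the single target called higher in melanocyte-like cells. It had 95.8 CPM in the knockout and 15.8 CPM in WT, from 39 UMIs in 18 knockout cells and 38 UMIs in 25 WT cells, a ratio of 6.06 [3.77 to 9.73]. The UMIs were spread over cells, and the highest single cell held 6 UMIs in the knockout and 5 in WT. Keratinocyte markers summed to 1396 CPM in the knockout melanocyte-like cells and 675 CPM in the WT ones, with 14 of 14 detected in each. The highest Gsta4 level of a knockout keratinocyte state was 19.8 CPM. The part of keratinocyte RNA and of depth in these melanocyte-like values was not tested.

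In fibroblast-like cells 2 of 7 measured targets were lower and 1 was higher, where 5.99% and 5.65% of all measured genes were lower and higher. Aldh3a1 had 2 UMIs in the knockout and 82 UMIs in WT (1.49 and 54.1 CPM), a ratio of 0.0276 [0.00329 to 0.103]. The classes differed in make-up: 78 of the 82 WT UMIs came from cluster 7, which held 14 knockout and 105 WT gated cells, while cluster 14 held 242 and 145. Within cluster 7 the ratio was 0.177 [0.0211 to 0.663], and cluster 14 held 0 and 4 UMIs. Hmox1 had 48.5 CPM in the knockout and 77.8 CPM in WT, a ratio of 0.623 [0.453 to 0.851]. Within cluster 14 Hmox1 had 43.8 CPM in the knockout and 99.8 CPM in WT, a ratio of 0.439 [0.302 to 0.632].

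Gclc was called higher in fibroblast-like cells, with 39.6 CPM in the knockout and 25.1 CPM in WT (53 and 38 UMIs), a ratio of 1.58 [1.02 to 2.46]. That call was lost under 6 of 11 alternative settings. In dermal papilla and sheath-like cells, the mesenchyme that instructs the follicle, 1 of 8 measured targets was higher and 0 were lower, against 3.5% and 3.98% of all measured genes. This was Nqo1, with 11 CPM in the knockout and 5.22 CPM in WT (27 and 18 UMIs), a ratio of 2.12 [1.12 to 4.08]. In T and innate lymphoid-like cells 0 of 5 measured targets met the rule in either direction, where 4.39% of all measured genes were higher and 4.98% were lower. That count depended on the gate: with classes taken from clusters 2 of 7 measured targets were lower and 0 higher.

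The rest of the pathway was read from lists of related genes in keratinocyte-like cells, where 7.68% of all measured genes were lower and 2.76% higher. Of 14 measured regulators of Nrf2, 1 was lower and 0 were higher, with a median log2 ratio of -0.04, a count near that background. The lower one was Bach2, a repressor that can occupy antioxidant response elements, with 2.41 CPM in the knockout and 4.86 CPM in WT, a ratio of 0.497 [0.427 to 0.577]. At the low end the list continued with Nfe2l3 (ratio 0.703) and Mafg (0.895), and at the high end stood Cul3 (1.15), Bach1 (1.13) and Keap1 (1.10). Nfe2l2, which encodes Nrf2 itself, had 135 CPM in the knockout and 134 CPM in WT, a ratio of 1.00 [0.982 to 1.03].

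Among 42 other measured Nrf2 targets 3 were higher, which were Gsta1, Gsta2 and Gsta3 described above, and 0 were lower, against 2.76% and 7.68% of all measured genes. The median log2 ratio of this list was -0.03, the same as that of all measured genes to 2 decimals. Its lowest members were Gstm5 (0.677), Gpx2 (0.687) and Akr1b8 (0.701), a transferase, a peroxidase and an aldo-keto reductase. None of these reached the 1.5-fold rule, unlike Slc7a11, Gsta4 and Aldh3a1.

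Slc7a11 is also a target of ATF4, the transcription factor of the amino acid response, and Aldh3a1 of AHR, the aryl hydrocarbon receptor, so the targets of both were read beside the list. Of 17 measured genes of the ATF4 list, 3 were lower and 0 higher, against 7.68% and 2.76% of all measured genes. Their median log2 ratio was -0.26. The 3 lower genes were Chac1, which degrades glutathione (0.548), the lipoprotein receptor Vldlr (0.613) and the mitochondrial folate enzyme Mthfd2 (0.653). The highest of that list were Phgdh (1.24), Atf5 (1.05) and Psat1 (0.962). Of 7 measured genes of the AHR list, 1 was lower and 0 were higher, against the same background. It was Cyp1b1, a cytochrome P450 with 0.792 CPM in the knockout and 2.29 CPM in WT, a ratio of 0.346 [0.267 to 0.444]. The others named by the same rule were Ahrr (0.793), Aldh1a3 (0.890), Arnt (1.02), Ahr (1.14) and Ugt1a6a (1.20). Among the 16 dissociation genes Dnajb1 was higher (1.55), next to Fos (1.44) and Atf3 (1.41), and the lowest were Ier3 (0.687), Nr4a1 (0.900) and Jund (0.982).

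**Figure D5:**
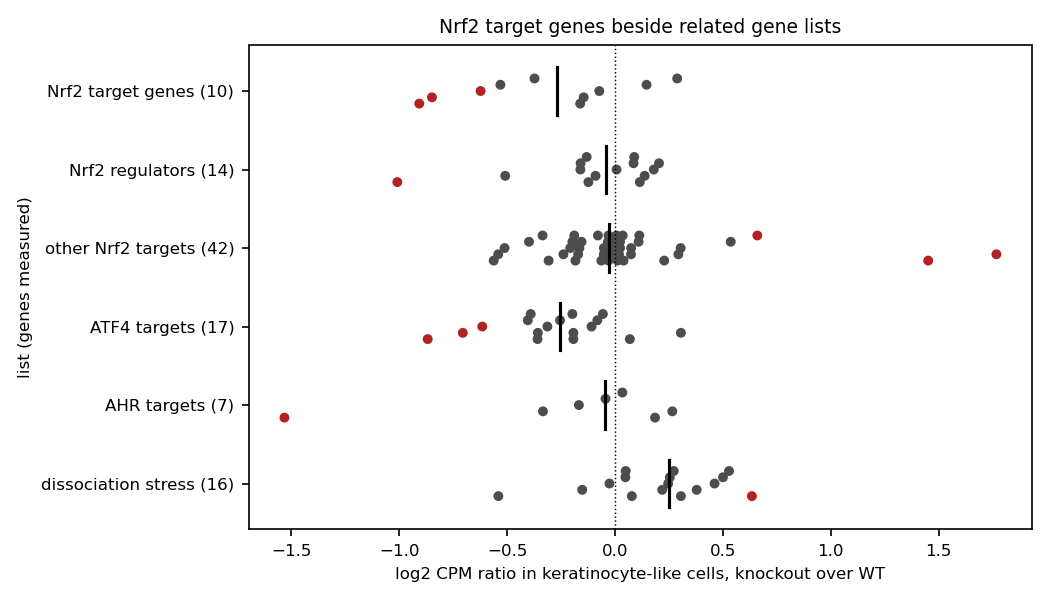
Log2 CPM ratio, knockout over WT, of each measured gene in keratinocyte-like cells, by list, with a black bar at each list's median and red points for genes called higher or lower. The 10 Nrf2 targets have a median of -0.27 and the 17 genes of the ATF4 list -0.26. The 42 other Nrf2 targets centre at -0.03, with 3 transferase genes to the right.

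The 10 targets did not share 1 pattern over the cell classes. Over the 26 points that 13 classes and 2 libraries give, Pearson's r of log2(CPM + 10) was 0.80 between Gclm and Gclc, 0.74 between Txnrd1 and Hmox1 and 0.65 between Aldh3a1 and Nqo1, and was -0.60 between Aldh3a1 and Txnrd1. These points share 2 libraries and related classes, so r is a description only. Outside the list, Gm29773 and Neil2 were among the 3 genes with the pattern most similar to Slc7a11 (r of 0.86 and 0.85). Slc7a11 had 15.8 CPM in WT melanocyte-like cells and at most 4.64 CPM at the other points, so its r leans on that 1 point. The 3 genes most similar to Gsta4 were Kpna6, Gm17227 and Rrn3 (0.79, 0.77 and 0.75). For Aldh3a1 they were Adh7, Defb1 and Krt80 (0.92, 0.89 and 0.86). For Gstm1 they were Otud1, Gsn and Cyp27a1 (0.86, 0.86 and 0.83), and for Hmox1 Extl2, Gspt2 and Tfpi (0.97, 0.97 and 0.96). For Txnrd1 they were Rsu1, Zfp560 and Nf1 (0.93, 0.90 and 0.90), and for Srxn1 Ifi35, Sppl2a and Ddx60 (0.88, 0.86 and 0.85). For Gclc they were Eps8, Specc1 and Slc7a8 (0.88, 0.87 and 0.85), for Gclm Yif1b, Fbxo5 and Spata24 (0.88, 0.86 and 0.85) and for Nqo1 Neurl1b, Gm15635 and Slc25a13 (0.88, 0.82 and 0.82).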

How the data were processed

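Single-cell RNA was measured in 2 libraries of dorsal skin, 1 per genotype, so no p-value or standard error was made, and intervals cover counting error only. The 10 genes and the lists beside them were chosen with earlier results of these data known. The authors deposited raw UMI counts for every gene in every barcode, without normalization, per the file headers. Per the submitters' processing notes the tools were Cell Ranger 3.0.2 and Seurat 3.0 and the genome build mm10; the file header names Cell Ranger 3.1.0. The knockout library held 9696 barcodes and the WT library 10741, of which 34 occurred in both.

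The cell filter asked for 500 UMIs and 300 genes or more, and for a mitochondrial share of 20% or less. Scrublet in scanpy 1.11.5 scored doublets at an expected rate of 0.08; its own threshold had not worked for the knockout library, so a common score of 0.25, set after seeing the data, removed 449 knockout cells (4.82%) and 474 WT cells (4.67%). Keratinocyte-like cells had at least 1% of UMIs from the keratinocyte list or at least 4 hair matrix markers, and other types at least 4 markers of their own. Cells passing both gates, 177 and 334, and cells passing neither, 153 and 230, were left out of all classes. A keratinocyte state was the highest standardised mean of marker levels with at least 3 markers detected; 772 knockout and 1016 WT cells lay within 0.25 SD of the next state, and 324 and 288 had no state. Basal-like cells with at least 5 mitotic, replicating or inflammatory markers were split off in that order. Leiden clusters (igraph 0.11.9, 2000 variable genes, 30 components, 15 neighbours, resolution 1) numbered 23 and served as a check on the gates.

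Counts were summed per class as CPM. Intervals at 95% were exact: conditional binomial for ratios, Poisson for summed counts and Clopper-Pearson for shares of cells (scipy 1.17.1). The ratio and call code was tested on simulated data. A count of 0 was replaced by a floor of 3 counts per library over the class, no ratio is given where both libraries were at or under it, and classes needed 50 cells in each library. One gene similar in pattern to Slc7a11 is not reported here. All 10 genes are named, and of each list the 3 highest and 3 lowest by keratinocyte ratio; Gsta1, Gsta2 and Gsta3 by class, Nfe2l2, and single clusters were chosen after their values were seen. Positions are from GENCODE vM21 for GRCm38. Other settings were a stricter filter, doublets kept, thinning to 1000 UMIs per cell, TMM factors (edgeR 4.0.16) and median-of-ratios factors (DESeq2 1.42.0), means over cells, 5% free RNA subtracted, cluster classes, states weighted alike, shared barcodes left out and other UMI minimums.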

Additional observations from a re-analysis of the deposited data

Results flagged for a closer look

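Gsta4 moved in opposite directions in different cell types under the same contrast, which is why it is set out here. Its ratio was 6.06 in melanocyte-like cells, from 95.8 CPM in the knockout and 15.8 CPM in WT, and its lowest ratio was 0.242 in inflammatory basal-like cells, from 4.0 CPM in the knockout and 16.5 CPM in WT. All 8 keratinocyte states in which it was measured were lower, and dermal papilla and sheath-like cells had a ratio of 1.07. The difference between these classes was not tested, since each genotype had 1 library.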

How the results depend on the processing

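Of 33 calls of a target in a class, keratinocyte pools included, 8 were kept under every planned setting that gave a value. These were Gsta4 in keratinocyte-like, basal-like, other basal-like and inflammatory basal-like cells, and Slc7a11 in keratinocyte-like and mitotic basal-like cells. Srxn1 in other basal-like and melanocyte-like cells was also kept. Some of them escaped the settings that ended most calls. Gsta4 in inflammatory basal-like, Slc7a11 in mitotic basal-like and Srxn1 in melanocyte-like cells gave no ratio after thinning. Mitotic, inflammatory and other basal-like cells had no class taken from clusters. Thinning to 1000 UMIs per cell, which leaves fewer counts, ended 20 of the 27 calls with a value there, and classes taken from clusters ended 8 of 25. Both settings also gave calls that the main setting lacked. In basal-like cells pooled, 3 of 9 measured targets were lower after thinning and 3 of 10 with cluster classes, against 1 of 10. In T and innate lymphoid-like cells 2 of 7 were lower with cluster classes, against 0 of 5. After thinning 1 of 9 was higher in spinous-like and 1 of 5 in bulge and germ-like cells, against 0 in each. The 3 lower and 0 higher counts in keratinocyte-like cells were within 1.5 times under every setting. Their median log2 ratio, -0.27, was -0.43 after thinning and -0.11 with states weighted alike, where Aldh3a1 had a ratio of 0.914; Aldh3a1 was also not called after thinning (0.786) or as a mean over cells (0.711). The Gsta4 ratio turned above 1 in bulge and germ-like cells after thinning (2.98, from 4 and 3 UMIs) and with cluster classes (1.34), and in upper hair follicle-like cells with follicle clusters only (1.29), a setting added after seeing the data. The causes were not tested. Of 1403 values of single genes under these settings, 1299 stayed within the counting interval of the main ratio, though some of these lost their call. Of the rest, 101 moved outside that interval and 3, of genes called in the main setting, crossed a ratio of 1. Crossings by genes without a main call were not counted apart. TMM and median-of-ratios factors shifted all ratios of a class by less than 0.05 on the log2 scale and ended 1 call, Gclc in fibroblast-like cells (1.54 and 1.53). After thinning, 14 gene and class pairs gave no ratio because too few counts were left. Many calls rest on under 50 UMIs in at least 1 library and are limited by depth. Among them are Slc7a11 in follicle states, Nqo1 in dermal papilla and sheath-like cells and Aldh3a1 in fibroblast-like cells. Slc7a11, Srxn1 and Hmox1 in melanocyte-like cells and Hmox1 in bulge and germ-like cells belong there too. So do both Gsta4 ratios flagged above, in melanocyte-like and inflammatory basal-like cells. No paired analysis was possible because each genotype had 1 library.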

Other observations

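Other targets of Nrf2 in melanocyte-like cells also held lower calls. Of 35 measured there, 4 were lower and 0 higher, against 4.64% and 7.83% of all measured genes, and the median log2 ratio was -0.20. Ftl1 and Fth1, the ferritin chains that store iron, had 3327 and 3327 CPM in the knockout and 7459 and 5824 CPM in WT, with ratios of 0.446 and 0.571. Ephx1, an epoxide hydrolase, had 22.1 CPM in the knockout and 94.1 CPM in WT (9 and 226 UMIs), a ratio of 0.235, and Esd, an esterase, had a ratio of 0.609. Among the regulators Sqstm1, which binds Keap1, had a ratio of 0.577 and Mafk, a small Maf partner, a ratio of 2.16. The depth of this class differed between libraries as described, and its part was not tested.

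Fibroblast-like cells gave the reverse count for the same list: of 34 measured, 4 were higher and 0 lower, against 5.65% and 5.99% of all measured genes, with a median log2 ratio of 0.08. These cells lay in different clusters in each library, 14 knockout and 105 WT cells in cluster 7 and 242 and 145 in cluster 14, and the part of that in the count was not tested. G6pdx, which feeds NADPH to these enzymes, had 24.6 CPM in the knockout and 9.23 CPM in WT (33 and 14 UMIs), a ratio of 2.67. Cbr1, a carbonyl reductase, had a ratio of 1.90, Gstm2 1.61 and Abcc1, an exporter of glutathione conjugates, 1.57. In spinous-like cells, where 4.63% of all measured genes were higher and 3.82% lower, 3 of 41 were higher, Gsta2 (2.20), Gsta3 (7.98 [2.48 to 40.9], from 30 UMIs in the knockout and 3 in WT) and Trp53inp1 (1.91), and 1 was lower, Osgin1 (0.607). In Langerhans cell-like cells, not compared because the knockout held 42 cells, Txnrd1 had 34 UMIs in the knockout and 93 UMIs in WT (191 and 235 CPM).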
